A study of Mus musculus with 10 samples.

Results

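Transcript levels of 44 mouse genes of the lysosome were followed in RAW264.7 cells, a macrophage-like cell line from a mouse tumor. The genes were taken from a written list of symbols and matched to the deposited Ensembl identifiers, and all 44 were found among 43432 listed genes and passed the count filter that left 14172 genes. They comprise 9 cathepsins, legumain (Lgmn), 2 further luminal enzymes (Tpp1 and Ppt1), 7 glycosidases, 4 genes of lipid breakdown, Grn and Gnptab, 5 membrane proteins, 3 transcription factors and 11 genes of the vacuolar proton pump. Cells received 0.5% DMSO alone (DMSO), DMSO with 1 µg/mL lipopolysaccharide (DMSO + LPS), or LPS after **1** at 3.2, 10 or 32 µM. Compound **1** is a monounsaturated keto fatty acid with a conjugated enone, isolated from a marine cyanobacterium, and by the study's methods it was added 1 h before LPS, with RNA taken after 12 h. Each of the 5 conditions had 2 libraries, labelled as biological replicates. The labels do not say whether these were separate cultures, so the p-values measure only the spread between these libraries. No condition held **1** without LPS, so an effect of **1** in resting cells cannot be read from these data.

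The lysosome is an acidic compartment in which macrophages digest what they engulf. Its hydrolases are made as precursors, tagged with mannose 6-phosphate by the enzyme that Gnptab encodes, and become active in the acid that the vacuolar ATPase maintains by pumping protons through its membrane sector (V0), driven by ATP hydrolysis in its peripheral sector (V1). TFEB, TFE3 and MITF, which belong to the MiT/TFE factors, bind the E-box CACGTG in promoters of many lysosomal genes, a set known as the CLEAR network.

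Library totals lay between 45966803 and 58976377 counts, and the 44 genes held 2.01% to 2.72% of them. Levels are given in CPM, counts relative to library totals that were scaled by the trimmed mean of M values. The lowest count of any of the 44 genes in any library was 24. All 8 macrophage markers were measured, with summed levels of 10223 to 11117 CPM in DMSO, 9580 to 9722 once LPS was added, 8850 to 9005 with 3.2 µM, 7779 to 8441 with 10 µM and 7249 to 7592 with 32 µM. Lyz2 held most of the sum in DMSO (a mean of 6453 CPM, against 4127 once LPS was added and 2707 with 32 µM). By gene, 6 of the 8 passed as higher with LPS and 2 as lower (Lyz2 and Csf1r), and at 32 µM 1 passed as higher than in DMSO + LPS and 6 as lower. Of the 4 T cell markers, Cd3e and Cd8a had 0 counts in every library. The 10 µM replicate 1 library stood apart by epithelial transcripts (Epcam, Krt8, Krt18 and Cdh1 summed to 38.2 CPM), and the 3.2 µM replicate 1 library held 5.78 CPM of them, against at most 0.085 CPM elsewhere. The 4 fibroblast markers summed to 4.43 CPM in the 10 µM replicate 1 library. Annotated ribosomal RNA genes took 2.83% of the 32 µM replicate 2 library and 0.153% to 0.333% of the others. These libraries were kept, the part of these features in the results was not tested, and differences without each of the 3 libraries are given below. In bulk RNA, fewer cells of a type and less RNA per cell cannot be told apart. All 4 genes taken to mark the treatments passed with LPS and at 32 µM, while 3 passed at 10 µM and 0 at 3.2 µM, where their log2 differences from DMSO + LPS were −0.48 to 0.34. Nos2 was 0.034 and 0 CPM in DMSO, 210 and 202 once LPS was added, and 44.8 and 45.6 with 32 µM. Il1b was 1.16 and 1.15 CPM in DMSO, 1529 and 1541 once LPS was added, and 480 and 471 with 32 µM. Nqo1 was 2.65 and 2.58 CPM in DMSO + LPS and 16.3 and 16.1 at 32 µM, and Hmox1 was 1241 and 1263 CPM against 1735 and 1629.

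Promoters are shown because 3 MiT/TFE factors are among the genes measured. RefSeq windows on GRCm38.p6, from 250 bases before to 50 after each gene's start, were matched for 37 of the 44 genes, of which 7 had more than 1 window (47 windows in all). A gene was counted once if any of its windows held the motif. Windows were not used for Ctsb, Ctsh, Asah1, Atp6v0d2, Atp6v1b2, Atp6v1c1 and Atp6v1h. CACGTG, which reads the same on both strands, was found in 12 of the 37 genes (32.4%) and in 2187 of 27025 genes with a window (8.09%). The longer TCACGTGA, which contains the E-box, was found in 6 of the 37 genes (16.2%) and in 1.12% of all. The CLEAR element consensus, which extends TCACGTGA by 1 base on each side, was found in 0 of the 37 genes and in 0.37% of all. TGACNNNGC, the core of the antioxidant response element that Nrf2 binds, searched on both strands, was found in 9 of the 37 genes (24.3%) and in 14% of all. The sequences below are printed 5′ to 3′ on the gene's own strand with each CACGTG in capitals. Lgmn carried the E-box 49 bases before a RefSeq start and had the largest LPS difference of the 44. Lamp1 carried 4 copies, and Atp6v1a carried 1 and is a pump subunit that did not pass the LPS test. In GENCODE M21, the stretches printed for Lgmn and Atp6v1a lie within the annotated gene itself but outside annotated exons.
Lgmn, chr12:102439093-102439152, minus strand: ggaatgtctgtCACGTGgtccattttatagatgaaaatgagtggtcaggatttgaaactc
Lamp1, chr8:13159086-13159160, plus strand: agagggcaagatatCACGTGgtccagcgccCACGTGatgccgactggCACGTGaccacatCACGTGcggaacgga
Atp6v1a, chr16:44139325-44139404, minus strand: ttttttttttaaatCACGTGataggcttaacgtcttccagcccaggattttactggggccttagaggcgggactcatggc
Short stretches of 30 bases around 1 E-box are given for Ctsd, Glb1, Naglu and Mcoln1, which were lower with LPS, and for Gla, which was higher. In GENCODE M21, those of Ctsd and Mcoln1 lie within an annotated exon of the gene itself, 27 of the 30 bases of that of Naglu do, and that of Gla lies outside Gla, within an exon of Hnrnph2.
Ctsd, chr7:142387908-142387937, minus strand: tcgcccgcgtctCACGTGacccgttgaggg
Glb1, chr9:114401018-114401047, plus strand: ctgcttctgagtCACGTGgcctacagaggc
Naglu, chr11:101070009-101070038, plus strand: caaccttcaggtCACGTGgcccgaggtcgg
Mcoln1, chr8:3500462-3500491, plus strand: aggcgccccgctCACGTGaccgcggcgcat
Gla, chrX:134601216-134601245, minus strand: gtaagcgattgatCACGTGagcatctacgt
The E-box was found in 6 of the 16 genes with a window that fell with LPS, in 2 of the 10 that rose and in 4 of the 11 that did not pass. Sequences are printed for all 6 that fell, but not for Atp6v0d1, which rose, or for Ctsa, Gaa and Ctsl, which did not pass. These matches describe letters in a window and were not tested as binding sites.

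Per kilobase of the longest coding transcript, the levels in DMSO spanned from 0.963 CPM per kb for Ctsh to 1704 CPM per kb for Ctsd, the aspartic protease cathepsin D. Ctsb followed with 741 CPM per kb, then Psap with 719 and Ctss with 686. Tfeb was second lowest, with 7.99 CPM per kb, while Tfe3 stood at 48.3 and Mitf at 18.7. In DMSO + LPS, Ctsd (1216 CPM per kb) and Ctsz (1165 CPM per kb) led the list. Across all libraries the level of Lgmn varied most, with a highest library 5.44 times its lowest, and that of Atp6v1c1 least, with 1.07 times. Replicate spread was taken as the median absolute difference between the 2 libraries of a condition on the log2(CPM + 0.5) scale. Over the 44 genes it was 0.027 at 3.2 µM, 0.033 in DMSO + LPS, 0.053 in DMSO and at 32 µM, and 0.086 at 10 µM. Over all genes it ran from 0.06 at 3.2 µM to 0.15 at 10 µM. The fit shares each gene's spread over the 5 conditions, although they differed in it. The largest difference among the 44 was 0.55 for Ctsh at 10 µM, where the counts were 50 and 26 and the added 0.5 makes the difference smaller.

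The first comparison asked what LPS alone did to these genes, with the solvent in both groups. LPS lowered Lgmn 4.67-fold, Man2b1 2.87-fold, Gnptab 2.47-fold and Tfeb 2.22-fold, and raised the pump subunits Atp6v1h 2.14-fold and Atp6v0a1 2.12-fold and the exopeptidase gene Ctsz 2.08-fold. Of the 44 genes, 31 passed the test at any fold (13 higher, 18 lower; edgeR's quasi-likelihood test, Benjamini-Hochberg adjusted p below 0.05), while 50.9% of all genes tested did (25.2% higher, 25.8% lower). With a change of at least 1.5-fold also required, 10 were called (4 higher, 6 lower), against 28.2% of all genes (14.6% higher, 13.6% lower). The 2 groups of libraries did not overlap for 38 of the 44, against 76.9% of all genes. The median log2 difference was −0.055 over the 44 genes and 0.0026 over all genes. Scaling by library size alone shifted the median of all genes to −0.20 and that of the 44 genes to −0.26, and 36 then passed (7 higher, 29 lower), with 56.5% of all genes. The 6 that no longer passed were all among the 13 higher (Atp6v0d1, Atp6v1d, Cd63, Ctsk, Gla and Smpd1). The 11 added all passed as lower (Atp6ap1, Atp6ap2, Atp6v1a, Atp6v1c1, Cd68, Ctsa, Ctsb, Gaa, Lamp2, Lipa and Mitf). DESeq2 passed 33 (15 higher, 18 lower), adding Ctsl and Tfe3, with 50.1% of all genes. Without 10 µM replicate 1, 3.2 µM replicate 1 or 32 µM replicate 2, Lgmn differed by −2.22 each time and Atp6v1h by 1.1 each time. The plot of LPS differences shows every gene by role.

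**Figure D1:**
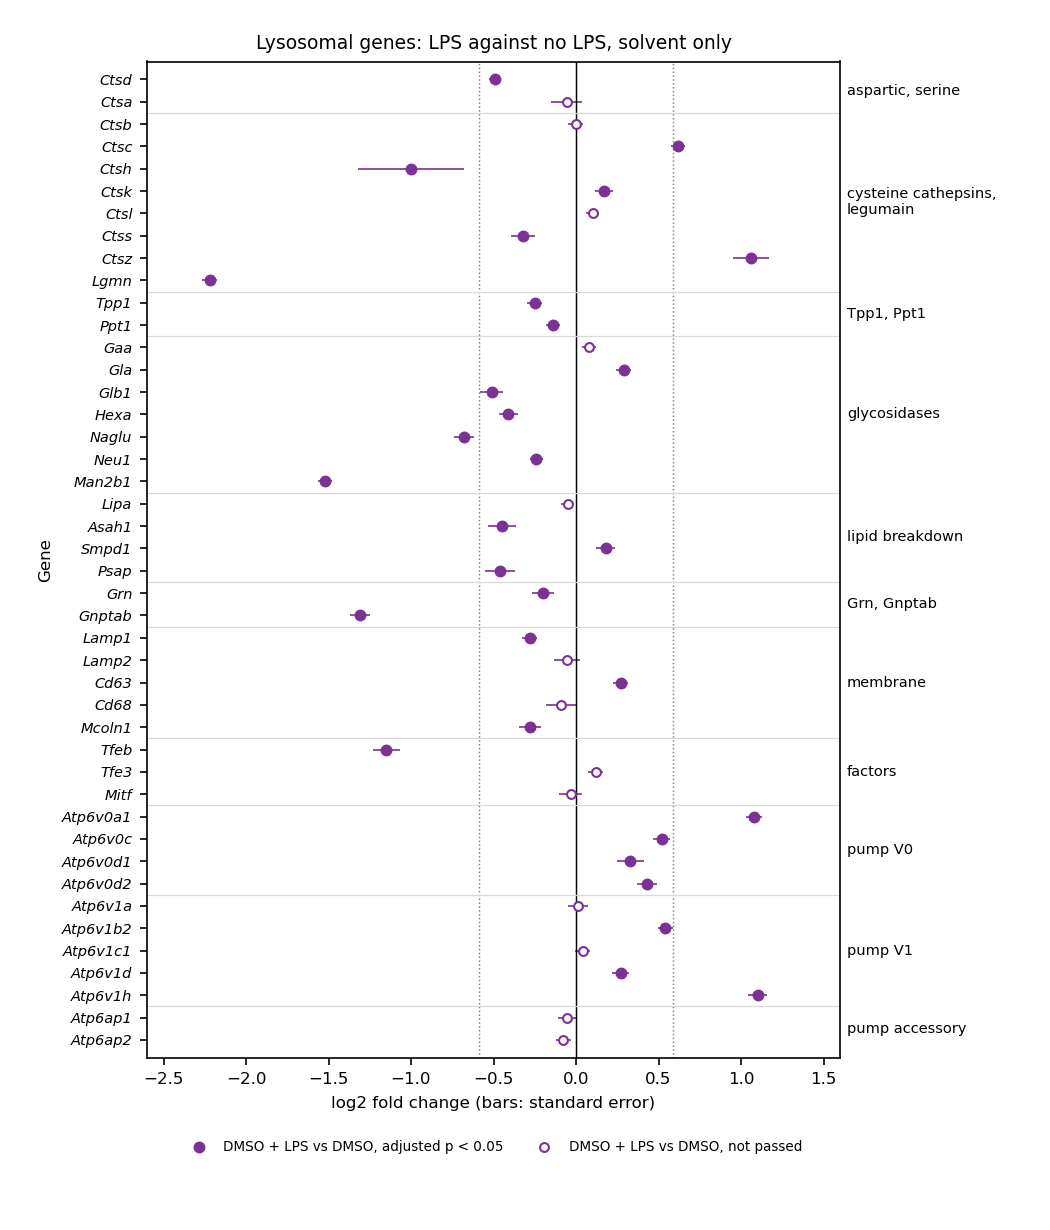
Log2 fold change of the 44 lysosomal genes in DMSO + LPS against DMSO (x axis), ordered by role (y axis), with the standard error of the fit as bars and dotted lines at 1.5-fold. Filled points passed the test (31 genes); Lgmn at −2.22 lies farthest left, and the 4 V0 pump genes all lie right of 0, between 0.33 and 1.08.

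Of the 8 cysteine proteases, 3 passed as higher with LPS, 3 as lower, and 2 did not pass (25.2% of all genes passed as higher and 25.8% as lower). Lgmn (legumain, which cuts after asparagine) measured 689 and 700 CPM in DMSO, 147 and 151 once LPS was added, 148 and 143 with 3.2 µM, 135 and 129 with 10 µM, and 129 and 130 with 32 µM. All 8 libraries with LPS lay far below both without it. The log2 difference with LPS was −2.22 ± 0.046 (SE, adjusted p = 1.27e-08). Ctsz, a carboxypeptidase, measured 860 and 753 CPM in DMSO, 1646 and 1713 once LPS was added, 1750 and 1725 with 3.2 µM, 1829 and 1545 with 10 µM, and 1724 and 1463 with 32 µM. Its groups with and without LPS did not overlap, and the log2 difference was 1.06 ± 0.11 (SE, adjusted p = 7.29e-05). Ctsc (cathepsin C, which activates other proteases by removing dipeptides) also rose, by 0.62 ± 0.043 on the log2 scale (adjusted p = 8.29e-06). Ctsh, an aminopeptidase, was barely expressed, at 1.62 and 1.5 CPM in DMSO, 0.664 and 0.894 once LPS was added, 0.518 and 0.659 with 3.2 µM, 1.07 and 0.575 with 10 µM, and 1.02 and 1.19 with 32 µM. Its log2 difference with LPS was −1.0 ± 0.32 (adjusted p = 0.0314). This did not pass without DMSO replicate 1 or 2 (adjusted p of 0.108 and 0.0768) or DMSO + LPS replicate 1 or 2 (0.18 and 0.0595).

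Ctss, the cathepsin that trims the invariant chain of MHC class II, fell: it measured 969 and 889 CPM in DMSO, 737 and 754 once LPS was added, 754 and 754 with 3.2 µM, 728 and 642 with 10 µM, and 642 and 593 with 32 µM. The log2 difference with LPS was −0.32 ± 0.072 (adjusted p = 0.00684). Ctsk, the collagen-cutting cathepsin, differed by 0.17 (adjusted p = 0.026), but by −0.035 when scaled by library size alone. It did not pass without DMSO replicate 1 or 2 or DMSO + LPS replicate 2 (adjusted p of 0.145, 0.077 and 0.192). Ctsb differed by −0.0022 and Ctsl by 0.10, and neither passed. Ctsl shares 26.8% of its exon bases with an antisense gene and 6.09% with a pseudogene, and Ctsb shares 12.8% with Fdft1 on the other strand. The strand setting of the counting is not given in the sources used here, so these values are uncertain to that extent.

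Ctsd measured 3683 and 3567 CPM in DMSO, 2572 and 2600 once LPS was added, 2429 and 2431 with 3.2 µM, 2399 and 2300 with 10 µM, and 2415 and 2391 with 32 µM. Every library with LPS lay below both without it, and the log2 difference was −0.49 ± 0.035 (adjusted p = 1.04e-05). The Ctsd exons share 34.4% of their bases with an overlapping gene on the same strand, Gm49369, so part of its reads cannot be assigned with certainty. Ctsa, the serine carboxypeptidase that protects neuraminidase and β-galactosidase, differed by −0.056 and did not pass. Tpp1, a tripeptidyl peptidase, fell by 0.25 on the log2 scale (adjusted p = 0.002). Ppt1, the thioesterase that removes palmitate from proteins, differed by −0.14 (adjusted p = 0.0269) and did not pass without DMSO replicate 1 (0.115) or DMSO + LPS replicate 1 (0.0509) or 2 (0.164).

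Of the 7 glycosidases, which take sugars off glycoproteins, glycolipids and glycosaminoglycans, 5 fell with LPS, 1 rose and 1 did not pass (25.8% of all genes passed as lower and 25.2% as higher). Man2b1 (lysosomal α-mannosidase) measured 286 and 276 CPM in DMSO, 99 and 96.7 once LPS was added, 93.3 and 94.6 with 3.2 µM, 96.4 and 92.8 with 10 µM, and 96.8 and 94 with 32 µM. The 8 libraries with LPS formed a narrow band well below those without it (log2 difference −1.52 ± 0.044, adjusted p = 6.16e-08). Naglu, which acts on heparan sulfate, measured 50.2 and 53.1 CPM in DMSO, 32.2 and 32.2 once LPS was added, 31.6 and 30 with 3.2 µM, 31.4 and 29 with 10 µM, and 30 and 29.2 with 32 µM. Its log2 difference was −0.68 ± 0.06 (adjusted p = 3.24e-05), and no library with LPS reached the DMSO values. Glb1 (β-galactosidase) measured 61 and 61 CPM in DMSO, 41.9 and 43.7 once LPS was added, 42.1 and 44.1 with 3.2 µM, 48 and 41.8 with 10 µM, and 39.1 and 38.9 with 32 µM, a fall of 0.51 ± 0.069 on the log2 scale with LPS (adjusted p = 0.000406). Hexa, the α subunit of β-hexosaminidase, fell by 0.41, and Neu1 (neuraminidase) fell by 0.24. Gla (α-galactosidase) rose by 0.29 (adjusted p = 0.001), while Gaa (acid α-glucosidase) differed by 0.079 and did not pass. The rise of Gla did not pass when scaled by library size alone (0.081, adjusted p = 0.207).

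Of the 4 genes of lipid breakdown, 2 passed as lower with LPS and 1 as higher, against 25.8% and 25.2% of all genes. Asah1 (acid ceramidase) fell by 0.45 (adjusted p = 0.00274), and Psap, whose saposins help enzymes reach their lipids, fell by 0.46 (adjusted p = 0.00335), both on the log2 scale. Smpd1 (acid sphingomyelinase) differed by 0.18 (adjusted p = 0.0278), and by −0.027 when scaled by library size alone. Its adjusted p was 0.0657 without DMSO replicate 1, 0.174 without DMSO replicate 2, 0.201 without DMSO + LPS replicate 2, and 0.0569 and 0.0558 without 3.2 µM replicate 1 or 2. Lipa, the acid lipase, differed by −0.049 with LPS and did not pass.

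Gnptab, which encodes the enzyme that starts the mannose 6-phosphate tag, measured 163 and 173 CPM in DMSO, 70.4 and 65.6 once LPS was added, 74.3 and 74.8 with 3.2 µM, 73.7 and 77.5 with 10 µM, and 69.2 and 74.3 with 32 µM. Every library with LPS lay far below both without it, with a log2 difference of −1.31 ± 0.06 (adjusted p = 7.18e-07). Grn encodes progranulin, a secreted and lysosomal glycoprotein that is cut into granulins. Its difference of −0.20 with LPS (adjusted p = 0.0375) did not pass without DMSO replicate 1 (0.195), DMSO + LPS replicate 1 (0.151) or 2 (0.103), or 3.2 µM replicate 1 (0.0627) or 2 (0.0636).

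Of the membrane proteins, Lamp1 fell by 0.28 (adjusted p = 0.00106) and Cd63, a tetraspanin, rose by 0.27 on the log2 scale (adjusted p = 0.00168). The rise of Cd63 did not pass when scaled by library size alone (0.06, adjusted p = 0.326). Lamp2 (−0.055) and the macrophage glycoprotein gene Cd68 (−0.091) did not pass. Mcoln1, which encodes the calcium-releasing channel TRPML1, measured 55.5 and 58.8 CPM in DMSO, 47.1 and 46.8 once LPS was added, 46.9 and 42.6 with 3.2 µM, 47.1 and 43.3 with 10 µM, and 46.3 and 48.4 with 32 µM. Both DMSO libraries lay above the 8 others (log2 difference with LPS −0.28 ± 0.067, adjusted p = 0.00827).

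Of the 3 transcription factors, 1 passed with LPS, against 50.9% of all genes. Tfeb measured 18.3 and 19.1 CPM in DMSO, 8.59 and 8.24 once LPS was added, 8.76 and 8.48 with 3.2 µM, 10.6 and 9.36 with 10 µM, and 10.1 and 10.9 with 32 µM. It fell by 1.15 ± 0.083 on the log2 scale (adjusted p = 1.01e-05), and no library with LPS came near the DMSO values. Tfe3 measured 161 and 167 CPM in DMSO, 179 and 176 once LPS was added, 178 and 182 with 3.2 µM, 186 and 176 with 10 µM, and 185 and 183 with 32 µM. Its difference with LPS, 0.12 ± 0.045, did not pass in edgeR's quasi-likelihood test (adjusted p = 0.0587), but DESeq2 passed it. Mitf measured 87.3 and 95.2 CPM in DMSO, 89.7 and 88.7 once LPS was added, 105 and 101 with 3.2 µM, 100 and 113 with 10 µM, and 105 and 111 with 32 µM, and differed by −0.032 ± 0.07 with LPS (adjusted p = 0.739). Scaled by library size alone, Mitf passed as lower with LPS. The difference in response between the factors was not itself tested, and transcript levels carry no information on where these proteins were in the cell.

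With totals scaled by the trimmed mean of M values, all 4 V0 genes and 3 of the 5 V1 genes of the proton pump passed as higher with LPS. With that scaling none of the 11 pump genes passed as lower, and the median log2 difference over the 11 was 0.33. Among all genes 25.2% passed as higher. Atp6v0a1, an isoform of the large subunit of the membrane sector, measured 80.3 and 83.5 CPM in DMSO, 175 and 172 once LPS was added, 153 and 165 with 3.2 µM, 151 and 155 with 10 µM, and 159 and 162 with 32 µM. Atp6v1h, which joins ATP hydrolysis to proton flow, measured 163 and 169 CPM in DMSO, 355 and 356 once LPS was added, 354 and 361 with 3.2 µM, 346 and 374 with 10 µM, and 369 and 400 with 32 µM. For both genes every library with LPS lay well above both DMSO libraries, with log2 differences of 1.08 ± 0.05 for Atp6v0a1 (adjusted p = 7.82e-07) and 1.10 ± 0.058 for Atp6v1h (adjusted p = 1.6e-06).

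Atp6v0c, a proton-binding ring subunit, measured 183 and 186 CPM in DMSO, 256 and 273 once LPS was added, 224 and 232 with 3.2 µM, 242 and 231 with 10 µM, and 227 and 235 with 32 µM. Its LPS difference of 0.52 ± 0.052 passed (adjusted p = 6.9e-05), and the libraries with **1** lay between the DMSO and the DMSO + LPS libraries. Atp6v0d2, the d-subunit isoform known from osteoclasts, rose by 0.43 (adjusted p = 0.000563). Its ubiquitous counterpart Atp6v0d1 differed by 0.33 (adjusted p = 0.0101) and did not pass without DMSO replicate 2 (0.0792) or DMSO + LPS replicate 2 (0.0615). The V1 genes Atp6v1b2, which binds ATP with the A subunit, and Atp6v1d, part of the central stalk, rose by 0.54 and 0.27 on the log2 scale. With scaling by library size alone, Atp6v0d1 (0.12) and Atp6v1d (0.067) did not pass. With the main scaling, by the trimmed mean of M values, the catalytic subunit gene Atp6v1a differed by 0.012 and Atp6v1c1 by 0.04. Neither passed, nor did the accessory genes Atp6ap1 (−0.054) and Atp6ap2 (−0.078). Scaled by library size alone, Atp6v1a, Atp6v1c1, Atp6ap1 and Atp6ap2 all passed as lower. With the main scaling, the log2 differences of the 9 V0 and V1 genes ranged from 0.012 to 1.10.

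**Figure D2:**
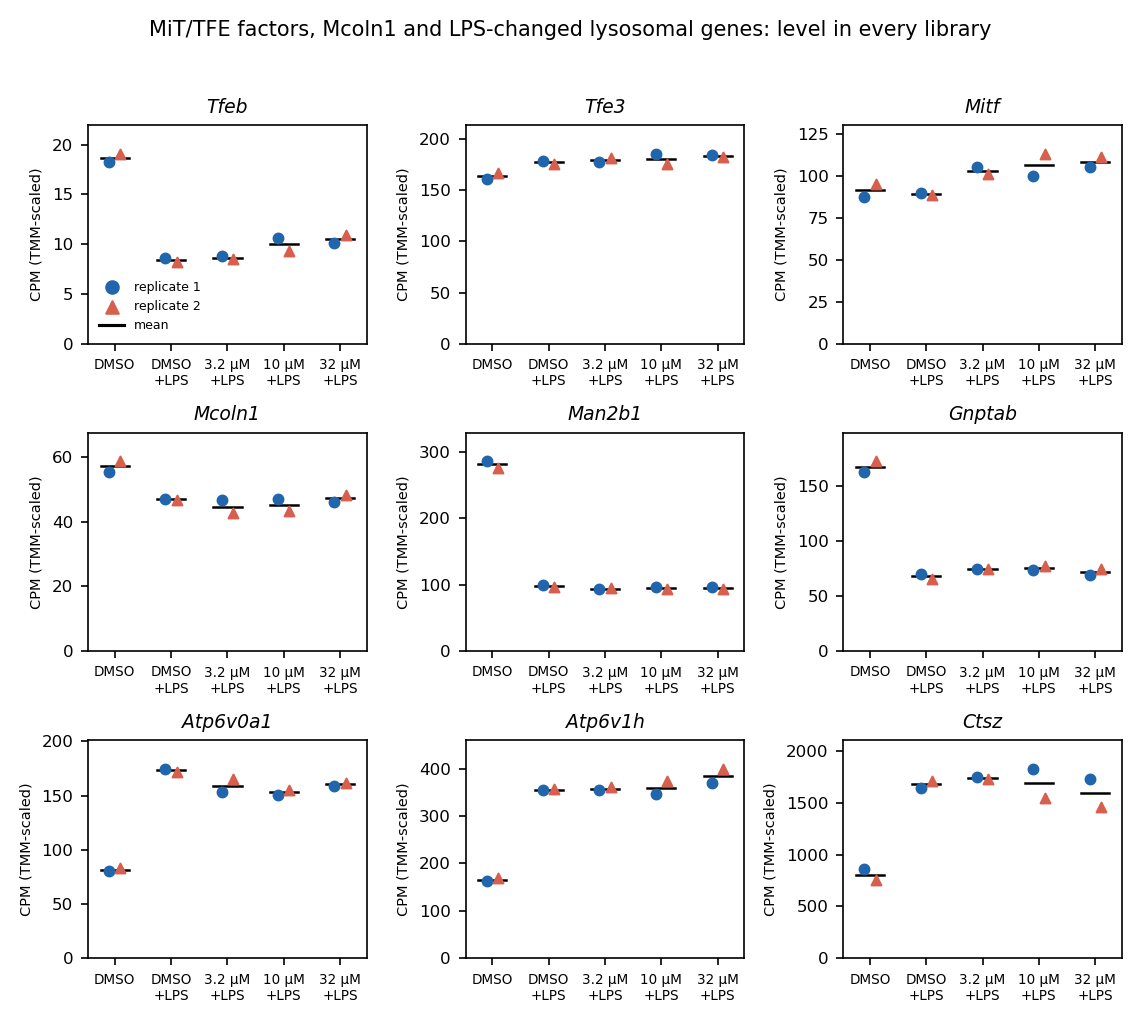
Level in each library (CPM, y axis from 0) of 3 MiT/TFE factors, Mcoln1 and 5 further lysosomal genes in the 5 conditions (x axis); circles are replicate 1, triangles replicate 2 and lines the mean of 2 libraries. Tfeb, Man2b1 and Gnptab drop between DMSO and DMSO + LPS, Atp6v0a1, Atp6v1h and Ctsz climb, and at 32 µM these 6 lie nearer to the DMSO + LPS than to the DMSO level.

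The next comparisons asked whether **1** altered these levels in LPS-treated cells. At 32 µM, cathepsin C transcripts were 2.24-fold lower and acid lipase transcripts 1.77-fold higher than in DMSO + LPS, and the other 42 genes stayed within 1.5-fold or did not pass. With both criteria 2 of the 44 genes were called, 1 in each direction, against 4.18% of all genes (1.27% higher, 2.91% lower). At any fold 6 of the 44 passed (Lipa higher, and Ctsc, Ppt1, Grn, Atp6v0d2 and Lgmn lower), against 9.78% of all genes (4.06% higher, 5.72% lower). The libraries did not overlap for 30 of the 44 genes, against 50% of all. The median log2 difference was −0.046 over the 44 genes and 0.0082 over all. DESeq2 passed 10 at 32 µM, among them Lamp2, Atp6v0c, Mitf and Ctss, which edgeR's quasi-likelihood test did not pass, and it passed 11.5% of all genes. The 32 µM differences were also taken without 10 µM replicate 1, 3.2 µM replicate 1 or 32 µM replicate 2. In that order Ctsc came to −1.16, −1.16 and −1.17, and Lipa to 0.82, 0.82 and 0.8. Grn came to −0.46, −0.46 and −0.39, and Atp6v0d2 to −0.3, −0.3 and −0.38. At 10 µM, 1 gene was called (Ctsc, lower), against 0.861% of all genes (0.282% higher, 0.579% lower). At any fold 3 passed (Lipa higher, Ctsc and Ppt1 lower), against 2.67% (0.967% higher, 1.7% lower). DESeq2 passed 8 at 10 µM, adding Ctsd, Atp6v0a1, Lgmn, Gla and Grn, and 4.44% of all genes. The libraries did not overlap for 22 of the 44 genes at 10 µM, against 35.8% of all. At 10 µM, without the same 3 libraries in turn, Ctsc came to −0.68, −0.73 and −0.73 and Lipa to 0.46, 0.44 and 0.44. Ppt1 came to −0.32, −0.3 and −0.3. The dose comparisons share the DMSO + LPS libraries with each other and with the LPS comparison, so their values are set side by side and are not independent.

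**Figure D3:**
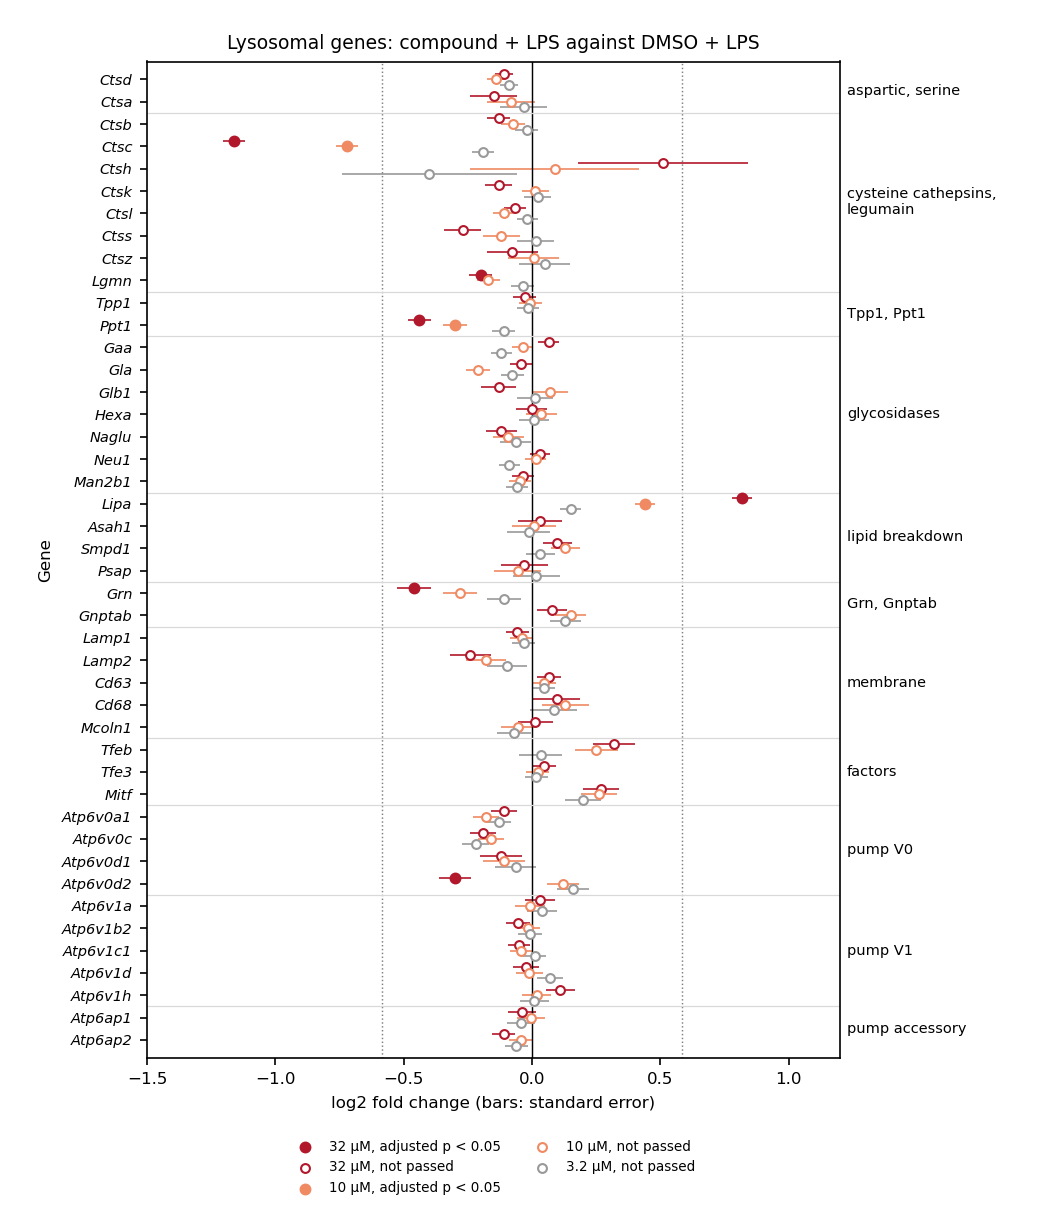
Log2 fold change of the 44 lysosomal genes at 3.2, 10 and 32 µM of **1** with LPS against DMSO + LPS (x axis), by role (y axis), with standard errors as bars and dotted lines at 1.5-fold. Filled points passed the test (6 genes at 32 µM, 3 at 10 µM, 0 at 3.2 µM); Ctsc is farthest left (−1.16 at 32 µM) and Lipa farthest right (0.82), while most genes lie near 0.

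Ctsc lies at chr7:88278085-88310888 on the plus strand (GRCm38). Its level was 86.3 and 86 CPM in DMSO, 133 and 131 once LPS was added, 118 and 115 with 3.2 µM, 77.7 and 82.2 with 10 µM, and 58.7 and 59.1 with 32 µM. Each group of libraries was separate from its neighbors, and at 32 µM the gene lay below even the cells without LPS. Against DMSO + LPS the log2 difference was −1.16 ± 0.043 at 32 µM (adjusted p = 4.04e-06), −0.72 ± 0.043 at 10 µM (adjusted p = 0.000282) and −0.19 ± 0.043 at 3.2 µM, which did not pass (adjusted p = 0.722). Between 32 and 10 µM the difference was −0.44 ± 0.043 (adjusted p = 0.00138), and between 32 µM and DMSO it was −0.55 ± 0.043 (adjusted p = 1.91e-05). In a fit of the 4 libraries compared, the difference between 32 and 10 µM did not pass (adjusted p = 0.164).

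Lipa, at chr19:34492318-34527474 on the minus strand (GRCm38), encodes the lipase that frees cholesterol and fatty acids from lipoprotein esters in the lysosome. Its level was 705 and 718 CPM in DMSO, 702 and 674 once LPS was added, 758 and 773 with 3.2 µM, 926 and 945 with 10 µM, and 1202 and 1226 with 32 µM. Both DMSO + LPS libraries lay slightly below both DMSO libraries, and every library with **1** lay above all 4 of them. Against DMSO + LPS the log2 difference was 0.82 ± 0.039 at 32 µM (adjusted p = 9.42e-06), 0.44 ± 0.039 at 10 µM (adjusted p = 0.00182) and 0.15 ± 0.039 at 3.2 µM (adjusted p = 0.833, not passed). Between 32 and 10 µM it rose by 0.38 ± 0.039 (adjusted p = 0.00188). In fits of the 4 libraries compared, neither the 10 µM difference (adjusted p = 0.0858) nor that between 32 and 10 µM (adjusted p = 0.169) passed. Lipa was the single member of the lipid group to pass: Smpd1 differed by 0.098, Asah1 by 0.031 and Psap by −0.03 at 32 µM.

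Ppt1 (chr4:122836242-122859175, plus strand) measured 129 and 126 CPM in DMSO, 118 and 113 once LPS was added, 105 and 110 with 3.2 µM, 95.3 and 92.6 with 10 µM, and 85.3 and 85 with 32 µM. The groups followed the order of dose without overlap. The difference from DMSO + LPS was −0.44 ± 0.045 at 32 µM (adjusted p = 0.000538) and −0.30 ± 0.045 at 10 µM (adjusted p = 0.014). The difference at 10 µM did not pass without DMSO + LPS replicate 1 (0.15) or 2 (0.0795).

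Grn (chr11:102430315-102437048, plus strand) measured 1481 and 1340 CPM in DMSO, 1218 and 1244 once LPS was added, 1139 and 1148 with 3.2 µM, 1054 and 979 with 10 µM, and 938 and 855 with 32 µM. Here too each dose lay below the one before it. The difference at 32 µM was −0.46 ± 0.066 (adjusted p = 0.00344), and that at 10 µM, −0.28 ± 0.066, did not pass (adjusted p = 0.0894). With the replicate number as a block, and with DESeq2, the difference at 10 µM passed.

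Atp6v0d2 did not follow the order of dose. It measured 37.5 and 38.8 CPM in DMSO, 51.3 and 51.9 once LPS was added, 58.6 and 56.7 with 3.2 µM, 54.7 and 57.1 with 10 µM, and 39.6 and 44.3 with 32 µM. The 2 lower doses lay above DMSO + LPS and the highest dose below it. At 32 µM it differed by −0.30 ± 0.062 from DMSO + LPS (adjusted p = 0.0208) and by −0.41 ± 0.062 from 10 µM (adjusted p = 0.0119), and at 10 µM by 0.12 from DMSO + LPS (adjusted p = 0.555). The osteoclast markers, 6 of 7 of which passed the count filter, summed to 260 to 285 CPM in DMSO, 370 to 383 once LPS was added, 406 to 414 with 3.2 µM, 456 to 473 with 10 µM and 381 to 407 with 32 µM. Nfatc1 held most of that sum (a mean of 300 CPM in DMSO + LPS and 334 with 32 µM). Of the 6, Acp5 (−0.83, adjusted p = 0.00432) and Ocstamp (−0.94, adjusted p = 0.000184) were called lower with 32 µM than with DMSO + LPS alone, and both also against 10 µM, while the other 4 did not pass in either comparison. Calcr had at most 1 count in a library, and the part of these markers in this result was not tested. The difference at 32 µM did not pass without DMSO + LPS replicate 1 (0.119) or 2 (0.14), 3.2 µM replicate 1 or 2 (0.0554 each) or 32 µM replicate 1 (0.112), and that from 10 µM did not pass without 32 µM replicate 1 (0.07).

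Lgmn, already low with LPS, differed by −0.20 ± 0.045 at 32 µM (adjusted p = 0.0258). This did not pass without DMSO + LPS replicate 1 (0.109) or 2 (0.175), 3.2 µM replicate 1 or 2 (0.0611 each), or 32 µM replicate 1 (0.115) or 2 (0.113).

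**Figure D4:**
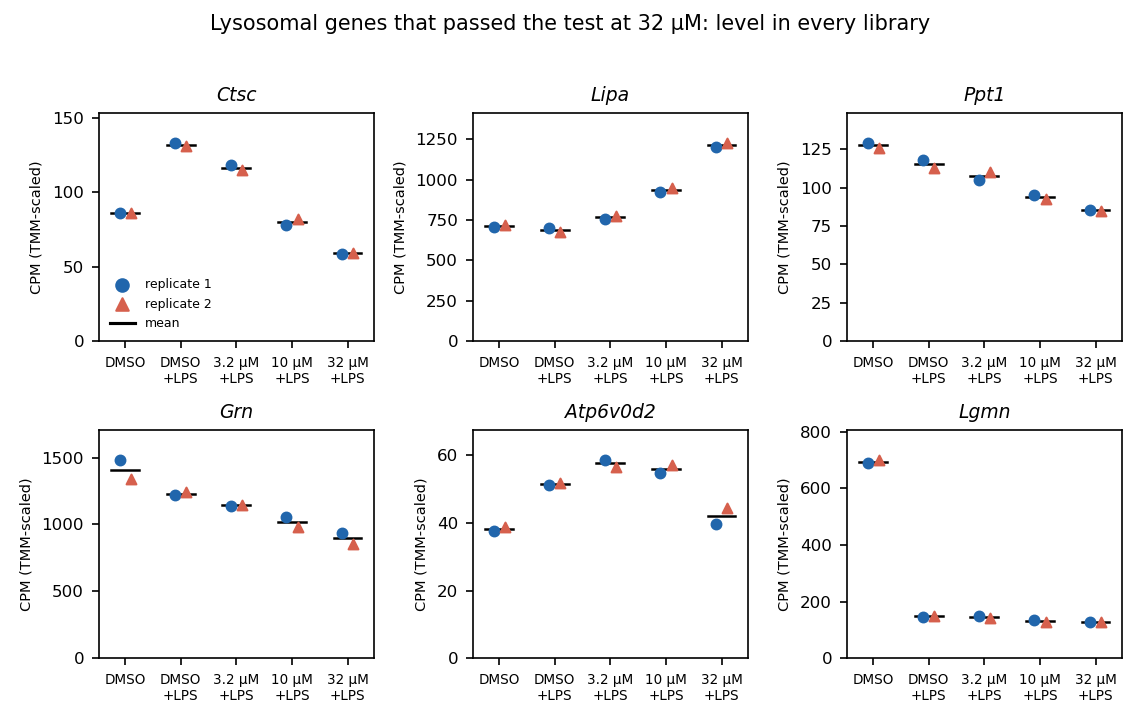
Level in each library (CPM, y axis from 0) of the 6 lysosomal genes that passed at 32 µM, in the 5 conditions (x axis); circles are replicate 1, triangles replicate 2 and lines the mean of 2 libraries. Ctsc falls from 133 and 131 to 58.7 and 59.1 CPM across the LPS conditions while Lipa climbs from 702 and 674 to 1202 and 1226.

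The remaining members did not pass at 32 µM in edgeR's quasi-likelihood test. With the replicate number as a block, 9 passed rather than 6, the 3 added being Atp6v0c, Ctss and Mitf, and 11.3% of all genes passed. Nearest to passing were Mitf (0.27 ± 0.07, adjusted p = 0.0515), Tfeb (0.32 ± 0.083, adjusted p = 0.0545), Atp6v0c (−0.19 ± 0.051, adjusted p = 0.0551) and Ctss (−0.27 ± 0.072, adjusted p = 0.056). At 32 µM Tfeb still differed from DMSO, by −0.84 ± 0.082 on the log2 scale (adjusted p = 6.9e-05). None of the 7 glycosidases passed, with differences from −0.13 to 0.066, and none of the 5 V1 genes, with −0.055 to 0.11. The membrane proteins spanned −0.24 (Lamp2) to 0.096 (Cd68), and the accessory pump genes were at −0.039 and −0.11. Ctsd differed by −0.11, Ctsa by −0.15, Ctsb by −0.13, Ctsk by −0.13, Ctsl by −0.066 and Ctsz by −0.076. Ctsh differed by 0.51 ± 0.33, on 38 and 42 counts in DMSO + LPS and 50 and 54 at 32 µM. Tpp1 differed by −0.029, Gnptab by 0.077 and Tfe3 by 0.047.

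At 3.2 µM none of the 44 genes passed and none was called, and neither did any of the 14172 genes tested (0%). The libraries did not overlap for 27 of the 44, against 45.9% of all genes. At an unadjusted p below 0.05 there were 9 of the 44 (Ctsd, Atp6v0a1, Atp6v0c, Lipa, Gaa, Atp6v0d2, Ppt1, Ctsc and Mitf) against 4.23% of all genes. The likelihood ratio test of edgeR passed 0 of the 44, with 0.0564% of all genes, and DESeq2 passed 0, with 0.275%. A fit of the 4 libraries compared passed 4 (Atp6v0c, Ctsc, Lipa and Mitf), with 3.64% of the 13391 genes it tested. The 3 with the smallest p were Ctsc, Atp6v0c (−0.22 ± 0.051, adjusted p = 0.778) and Lipa. Along DMSO + LPS, 3.2, 10 and 32 µM, the group means fell at each step for 11 of the 44 genes (25%, against 10.5% of all genes tested) and rose at each step for 6 (13.6%, against 11.2%). The 11 were Ctsa, Ctsb, Ctsc, Lgmn, Ppt1, Naglu, Grn, Lamp1, Lamp2, Atp6v0d1 and Atp6v1b2. The 6 were Lipa, Cd63, Tfeb, Tfe3, Mitf and Atp6v1h. Tfe3 differed from DMSO + LPS by only 0.016, 0.023 and 0.047 at 3.2, 10 and 32 µM (SE 0.045 each). Mitf differed by 0.015 (SE 0.07) between 32 and 10 µM. None of Tfeb, Tfe3 and Mitf passed against DMSO + LPS at any dose in edgeR's quasi-likelihood test with TMM scaling and no block. Mitf passed at 32 µM with the replicate block, with the likelihood ratio test and with DESeq2, and at 3.2 µM in the fit of the 4 libraries compared, and Tfeb passed at 32 µM when scaled by library size alone.

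Between 32 and 10 µM, none of the 44 genes was called, against 1.32% of all genes (0.169% higher, 1.15% lower), and 3 passed at any fold (Lipa higher, Ctsc and Atp6v0d2 lower), against 2.76% (0.804% higher, 1.95% lower). The libraries did not overlap for 12 of the 44, against 32.6% of all genes. At an unadjusted p below 0.05 there were 9, against 12.5% of all genes, and DESeq2 passed 4, with 4.16% of all genes. Against the cells without LPS, 32 µM with LPS left 13 of the 44 genes called (4 higher, 9 lower), against 27.1% of all genes (13.9% higher, 13.3% lower). At any fold 34 passed (13 higher, 21 lower), against 50.9% (25.7% higher, 25.1% lower). With scaling by library size alone 33 passed (6 higher, 27 lower; 54.7% of all genes), and Tfe3, Mitf, Gaa, Atp6v1d, Atp6v0c, Gla and Smpd1 no longer passed as higher. With the replicate block 36 passed, adding Atp6v0d1 and Ctsa, and 53.9% of all genes passed. The libraries did not overlap for 40 of the 44, against 71.4% of all genes. The 4 higher were Atp6v1h (1.21 ± 0.058), Ctsz (0.98 ± 0.11), Atp6v0a1 (0.97 ± 0.05) and Lipa (0.77 ± 0.039). The 9 lower were Lgmn (−2.43 ± 0.047), Man2b1 (−1.56 ± 0.044), Gnptab (−1.23 ± 0.06), Tfeb, Naglu (−0.81 ± 0.06), Grn (−0.65 ± 0.066), Glb1 (−0.65 ± 0.069), Ctsd (−0.59 ± 0.035) and Ctss (−0.59 ± 0.072). Tfe3 (0.17, adjusted p = 0.016) and Mitf (0.24, adjusted p = 0.022) passed as higher in this comparison. Tfe3 did not pass without DMSO replicate 1 or 2 or 32 µM replicate 1 or 2 (adjusted p of 0.0537 to 0.0964), nor Mitf without DMSO replicate 1 or 32 µM replicate 2 (0.124 to 0.142), and when scaled by library size alone the values were −0.037 for Tfe3 and 0.036 for Mitf. This comparison changes LPS and **1** at once.

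Beyond the 44 genes, 115 further genes of the lysosome and of its supply (hydrolases, transporters, further pump subunits, sorting, nutrient sensing and autophagy) were listed, and 112 were tested. With LPS 74 of the 112 passed (66.1%, against 50.9% of all genes; 32 higher, 42 lower) and 34 were called (30.4%, against 28.2%; 11 higher, 23 lower). Of the 9 further pump genes tested, 5 passed, 3 of them higher. Those with the smallest p were Slc15a3, an oligopeptide and histidine carrier (3.63 ± 0.08, adjusted p = 1.61e-08), Sqstm1, the autophagy adaptor p62 (1.90 ± 0.043, adjusted p = 1.72e-08), the two-pore channel gene Tpcn1 (−1.97 ± 0.047, adjusted p = 2.35e-08), Ctsf (−1.74 ± 0.06, adjusted p = 1.6e-07) and the sulfatase gene Arsb (−1.26 ± 0.046, adjusted p = 2.02e-07). At 32 µM against DMSO + LPS 17 of the 112 passed (15.2%, against 9.78% of all genes; 6 higher, 11 lower), and the 4 called (3.57%, against 4.18%) were all lower. Npc2, which hands the cholesterol freed by the acid lipase to the membrane, fell from a mean of 611 to 402 CPM (−0.61 ± 0.048, adjusted p = 0.000135). Slc15a3 fell from 684 to 405 CPM (−0.76 ± 0.072, adjusted p = 0.000387), the lysozyme gene Lyz2 from 4127 to 2707 CPM (−0.61 ± 0.081, adjusted p = 0.00238), and Acp5, the tartrate-resistant acid phosphatase, from 38.3 to 21.5 CPM (−0.83 ± 0.12, adjusted p = 0.00432). Lyz2 and Acp5 also stand in the macrophage and osteoclast marker lists whose sums are given above. At 10 µM 5 of the 112 passed (4.46%, against 2.67%; 3 higher, 2 lower) and 0 were called, against 0.861% of all genes.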

How the data were processed

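RNA was poly(A)-selected and made into directional libraries. The deposited values are the authors' unnormalized read counts for each Ensembl gene, with a column for every library. The submitters' processing notes name Trimmomatic, FastQC, STAR, DESeq2 and mm10, while the counting tool, its strand setting and the annotation are not given in the sources used here. Depth was 45966803 to 58976377 counts per library.

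Symbols and positions came from GENCODE M21 (GRCm38), matched for 42548 of 43432 identifiers. Genes were kept by filterByExpr (minimum count 10), scaled by TMM and fitted with 1 mean for each of 5 conditions in edgeR 4.0.16 (R 4.3.3), leaving 5 residual degrees of freedom. Quasi-likelihood F tests covered 6 comparisons. Passed means a Benjamini-Hochberg adjusted p below 0.05 over all 14172 genes tested, and called adds a change of at least 1.5-fold. An exact permutation of 2 against 2 libraries cannot give p below 0.333 and was not used. On counts simulated for the 32 µM comparison (13912 genes), 138 of 194 changed genes were recovered with 7 false calls. Levels per kilobase used the longest basic coding transcript. Alternatives used DESeq2 1.42.0, other scalings, filters and cutoffs, a replicate block, and each library left out.

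The members, lists and roles were chosen with earlier results of these data known. Per-library values are given for members called in any comparison, the 3 with the smallest p in each, and Tfeb, Tfe3, Mitf and Mcoln1. Further lysosomal genes are named if called with LPS or at 32 µM, at most the 5 with the smallest p.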

Additional observations from a re-analysis of the deposited data

How the results depend on the processing

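Called members numbered 10 with LPS, 2 at 32 µM, 1 at 10 µM, 0 at 3.2 µM, 0 for 32 against 10 µM, and 13 for 32 µM against DMSO. With no fold cutoff these were 31, 6, 3, 0, 3 and 34, by construction of the cutoff, and with a 2-fold cutoff 1 at 32 µM, 0 at 10 µM and 4 for 32 µM against DMSO. No share of all genes is given for the 2-fold cutoff or with a library left out, so those counts describe the members only. Leaving out each library gave 9 to 10 with LPS, 2 to 2 at 32 µM, 1 to 1 at 10 µM, 0 to 0 at 3.2 µM and for 32 against 10 µM, and 10 to 15 for 32 µM against DMSO; a condition left with 1 library is assumed to vary like the others. Of the passes at any fold, 22 of 31 with LPS, 4 of 6 at 32 µM, 1 of 3 at 10 µM, 0 of 3 for 32 against 10 µM and 23 of 34 for 32 µM against DMSO held under every alternative run. Lipa at 10 µM and Lipa and Ctsc between 32 and 10 µM were lost only in fits of the 4 libraries compared (adjusted p of 0.0858, 0.169 and 0.164). Scaling by library size alone reversed Ctsk (−0.035) and Smpd1 (−0.027) with LPS, and Tfe3 (−0.037) and Gaa (−0.057) for 32 µM against DMSO, where the median of all genes came to −0.18.

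The replicate block gave the same counts of called members (10, 2, 1, 0, 0 and 13), and at any fold 9 passed at 32 µM (adding Atp6v0c, Ctss and Mitf) and 5 at 10 µM (adding Gla and Grn, with 3.34% of all genes). At any fold DESeq2 passed 10 at 32 µM and 8 at 10 µM, and the fit of the 4 libraries compared passed 1 at 10 µM (0.307% of all genes), 4 at 3.2 µM and 0 for 32 against 10 µM (0.0374%). The deviations of same-numbered libraries correlated between −0.23 and 0.71 over 10 pairs of conditions, 6 of them over 0.1. The 4 others all involve DMSO + LPS, and since not every pair was over 0.1 the fit without the block was kept. Groups of 2 limit the precision of every difference, and Ctsh, the member with the fewest counts, is limited by depth as well.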
